A study of Homo sapiens with 7 samples.

Results

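The neighbouring genes IL6R and SHE lie on chromosome 1, and the peaks of the vitamin D receptor (VDR) around them were followed through 6 peak lists from THP-1, an established human monocytic leukaemia cell line. The peaks described are those that overlap a window of 260 kb, chr1:154300000-154560000 in hg19, proposed with the peak calls of these lists known. It holds 30 of the 89218 peaks of all lists, which cover unequal parts of the genome. Over the part covered by all 6 lists the total was 35564 peaks. Of the 30, 25 came from 3 libraries of cells given the VDR ligand 1α,25-dihydroxyvitamin D3 (1,25D, 100 nM, 8 h). The other 5 came from 3 libraries of cells given the solvent (EtOH, 0.1% ethanol, 8 h). All cells were of the same line, and neither group had any other treatment in the labels. The assay was ChIPmentation with a VDR antibody, in which transposase tags the immunoprecipitated chromatin with adapters for sequencing. An input library was not analysed here. The window was chosen on these calls, so counts and folds are given as descriptions with no test, and the labels do not say whether replicates came from separate cultures.

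VDR is a nuclear receptor that binds DNA mostly as a partner of RXR, at paired half-sites 3 bases apart. IL6R encodes the ligand-binding chain of the interleukin-6 receptor, which signals with gp130 through JAK kinases and STAT3, and monocytes and macrophages are among the cells that express it. A soluble form of the receptor, shed from the cell surface or made from a spliced transcript, lets cells without their own receptor chain respond to the cytokine. SHE encodes an adaptor protein with an SH2 domain, the module that binds phosphorylated tyrosines, and belongs to the SHB family of adaptors.

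In hg19, IL6R spans 154377669 to 154441926 and SHE 154442250 to 154474589, with 323 bp between them. The genes run towards each other: IL6R is read on the plus strand and SHE on the minus strand, so the start of SHE is its highest coordinate. In the gene order of RefSeq's GRCh38.p14 annotation, ATP8B2 and the antisense RNA IL6R-AS1 come before IL6R, and TDRD10, UBE2Q1 and CHRNB2 follow SHE. TDRD10 starts inside SHE there, on the opposite strand. Transcript models of hg19 were not used here, so exon or intron is not given for any peak.

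Both gene starts had a VDR peak in at least 1 list of 1,25D, and the 250 bases before each start are shown for that reason. They are from RefSeq, in GRCh38.p14, 5′ to 3′ on the gene's strand, at chr1:154405093-154405342 (plus) for IL6R and at chr1:154502413-154502662 (minus) for SHE. Capitals mark GAGGAA or its reverse complement TTCCTC, the core bound by PU.1, an ETS factor of myeloid cells.
IL6R: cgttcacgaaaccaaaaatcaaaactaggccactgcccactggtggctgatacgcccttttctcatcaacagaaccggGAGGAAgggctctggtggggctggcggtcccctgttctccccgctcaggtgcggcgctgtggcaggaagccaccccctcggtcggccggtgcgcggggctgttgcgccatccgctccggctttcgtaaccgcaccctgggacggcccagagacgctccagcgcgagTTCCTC
SHE: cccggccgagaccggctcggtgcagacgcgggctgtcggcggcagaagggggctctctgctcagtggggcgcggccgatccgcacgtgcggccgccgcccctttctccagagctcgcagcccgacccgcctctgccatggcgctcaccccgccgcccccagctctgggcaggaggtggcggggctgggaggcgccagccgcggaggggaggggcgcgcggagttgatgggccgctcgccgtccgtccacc
IL6R held 2 of these cores, the first beginning 172 bases before the start, and SHE held 0. The 250 bases before the start of TDRD10, at chr1:154501969-154502218 (plus), were searched too and are not printed. They held 1 core. Of 35116 RefSeq promoters searched over the same length on both strands, 23.6% held at least 1. The VDR half-site AGGTCA, its variant GGGTCA, its other variant AGTTCA and the further form GGTTCA occurred in none of these sequences on either strand. Of all promoters, 33.8% held at least 1. Pairs of them 3 bases apart in the same direction were in 0.0655% of all promoters, and no such pair was in these sequences. RefSeq's gene models have 64108 bp for IL6R and 32776 bp for SHE, against 64258 and 32340 bp in the hg19 coordinates, so the starts need not be the same base. Which of the printed bases a peak covers was therefore not determined.

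Over the 3 1,25D lists together the VDR peaks were most numerous in SHE, which also held the strongest of them, and others lay in IL6R and before it. The lists of 1,25D replicates 1, 2 and 3 had 6, 11 and 8 peaks in the window, and those of EtOH replicates 1, 2 and 3 had 0, 4 and 1. The groups did not overlap in this number, at 8.33 ± 2.52 and 1.67 ± 2.08 peaks per list (mean ± SD, n = 3 each). Of 3379 windows of the same length, 2.72% likewise kept the groups apart with the 1,25D lists higher, and 9.14% with the EtOH lists higher. The window was chosen on these calls, so nothing is read from this. EtOH replicate 2 supplied 4 of the 5 solvent peaks, and without it the EtOH mean was 0.50. SHE takes up 12.4% of the window and held 14 of the 25 1,25D peaks (56%), which is 4.33 per 10 kb over the 3 lists together. IL6R held 5 (0.778 per 10 kb), the 77.7 kb before it 6 (0.773 per 10 kb), and the 85.4 kb beyond the start of SHE 0. By list, SHE held 5, 6 and 3 peaks in 1,25D replicates 1, 2 and 3. In replicate 3 the stretch before IL6R held 3 as well, so SHE did not lead there. The median fold of the 1,25D peaks was 4.46 in SHE (range 3.12 to 10.7), 4.04 in IL6R (2.74 to 5.43) and 4.71 before IL6R (3.29 to 6.55), so SHE stood out by its highest peaks and not by its median. The EtOH peaks were 1 before IL6R, 2 in SHE and 2 beyond its start, with 0 in IL6R.

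**Figure D1:**
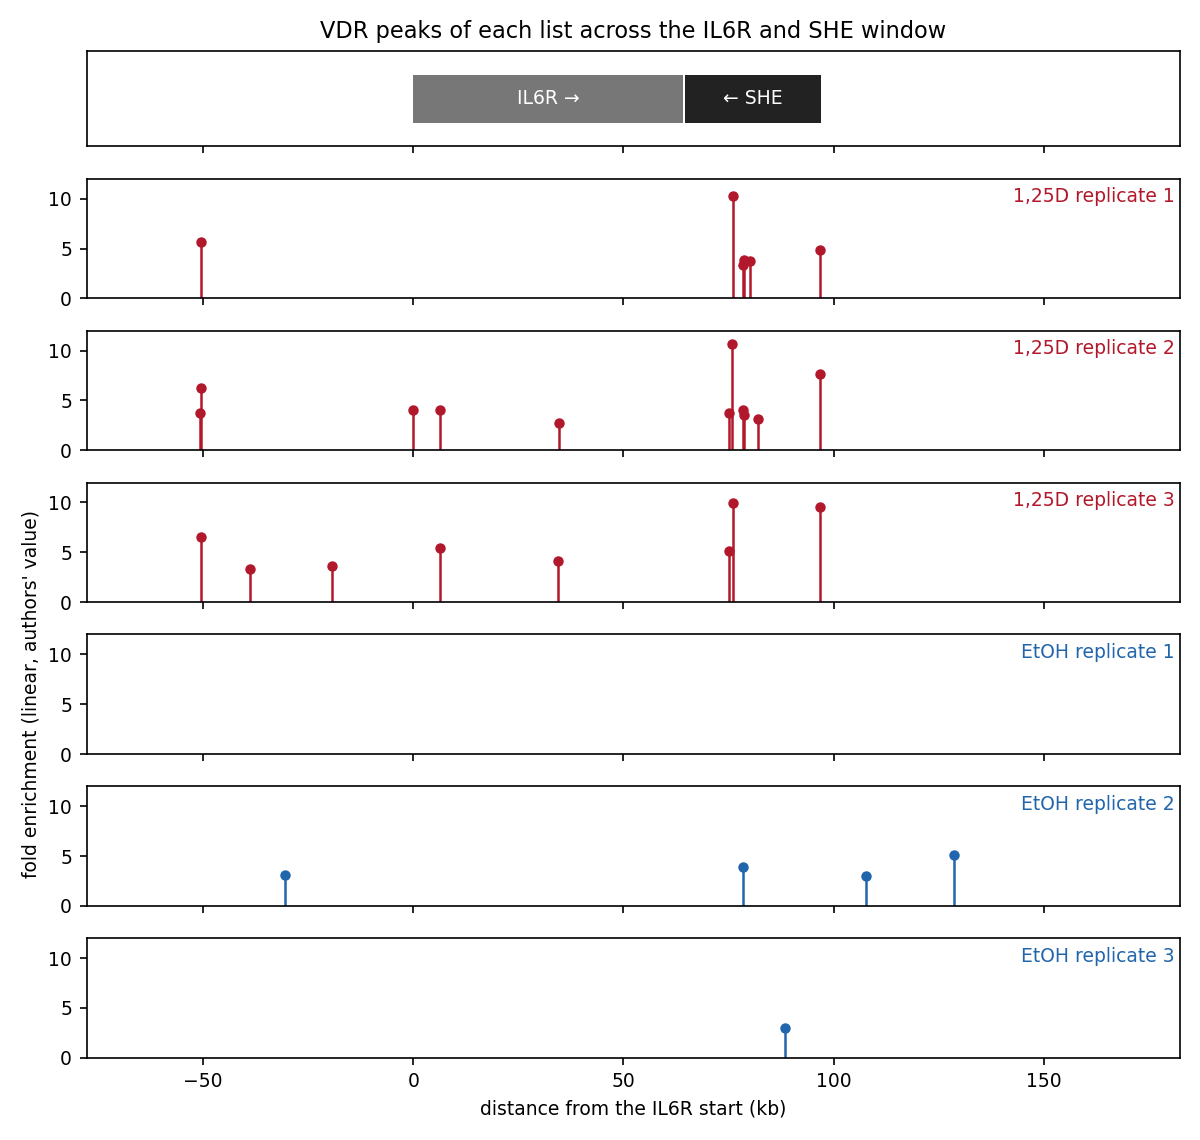
Apart from the gene map on top, each row is 1 peak list, with peaks as stems at their midpoints (x axis, kb from the IL6R start) and the authors' linear fold enrichment as height (y axis); 1,25D lists are red and EtOH lists blue. The tallest stem in every 1,25D list, at a fold of 9.95 to 10.7, stands in SHE, and EtOH replicate 1 is empty.

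The lists carry no read counts, so depth is unknown, and a missing peak is one the caller did not report, which is not the same as absent VDR. The lists do differ in length. Over the part of the genome covered by all 6 (chromosomes 1 and 10 to 15, and chromosome 16 up to 50293713), they held 3647 to 5203 peaks after 1,25D and 5251 to 11317 after EtOH. The 1,25D lists were thus the shorter ones, though by little in replicate 1 (5203 against 5251). They placed 0.115% to 0.302% of their peaks in this window, and the EtOH lists placed 0% to 0.0354% there. Nothing is read from these shares, as the window was chosen on these calls. The highest p in a list was 0.00433 for 1,25D replicate 1, 0.00431 for EtOH replicate 1 and between 0.00978 and 0.00997 for the rest.

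Peaks sharing at least 1 bp across lists were joined into 18 sites. A total of 3 sites were called in every 1,25D list and in no EtOH list, against 1.70% of the 28993 sites of the part covered by all lists. The window was chosen for such calls, and nothing is read from the difference. Another 4 sites were called in exactly 2 of the 1,25D lists and in no EtOH list (2.19% of all sites). Together these were 7 sites (3.89% of all sites). A single site had peaks of both treatments (5.27% of all sites), and 0 sites were called in every EtOH list and no 1,25D list (0.0379% of all sites) or in all 6 lists (1.03%). The remaining 10 sites were in 1 list only (89.8% of all sites), 6 of them after 1,25D (24.4% of all sites) and 4 after EtOH (65.4%). Which libraries are required decides these numbers: without 1,25D replicate 1, which had no peak in IL6R, 6 sites were in both other 1,25D lists and no EtOH list. The count of sites in at least 2 1,25D lists and no EtOH list was 3 without 1,25D replicate 2 and 4 without replicate 3. Leaving out a list changes these patterns over all sites too. Shares over all sites were not computed with a list left out, so nothing is read about the window from these changes.

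**Figure D2:**
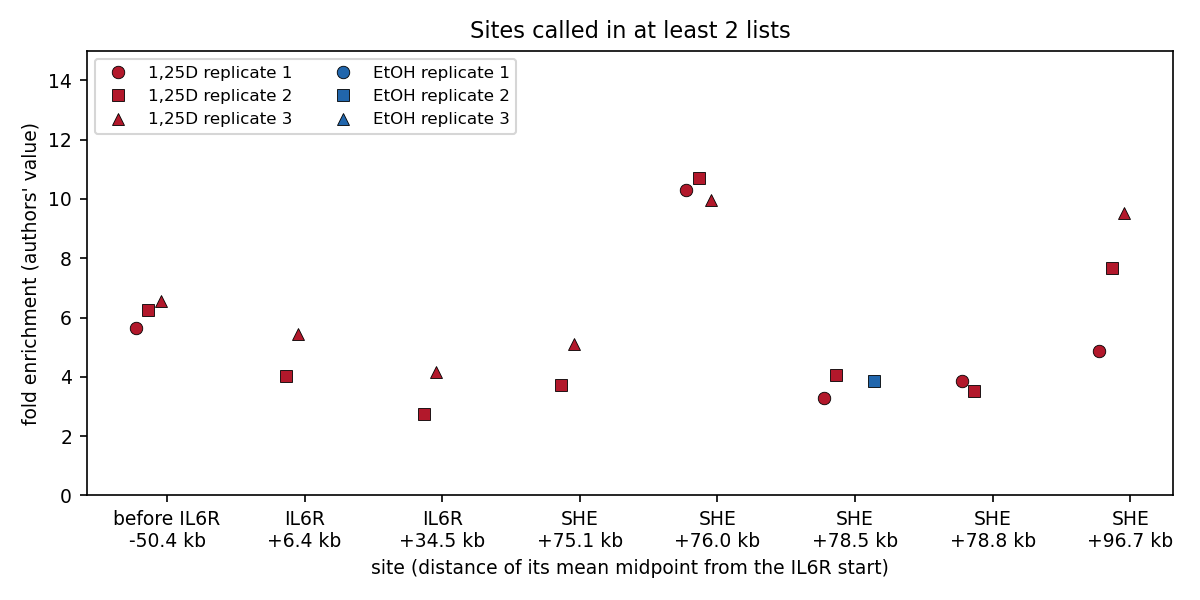
The 8 sites called in at least 2 lists are ordered along the chromosome (x axis, distance from the IL6R start), with the authors' fold enrichment in each list that called them (y axis); symbols mark the replicate, red is 1,25D and blue is EtOH. The site in SHE at 76.0 kb has folds between 9.95 and 10.7, the site at the SHE start has folds between 4.88 and 9.53, and the only EtOH point is at 3.87.

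The strongest site was inside SHE, at 154453372 to 154453923, 20.9 kb from the start of SHE and 11.7 kb past the end of IL6R. Its fold enrichment, the authors' ratio over the background of their peak caller, was 10.3, 10.7 and 9.95 in 1,25D replicates 1, 2 and 3 (10.3 ± 0.377, SD, n = 3). The authors' p-values were 1.68e-20, 4.28e-21 and 5.79e-20. The 3 folds lay close together, and the highest peak of the window was at this site in each 1,25D list. Within the lists over the part covered by all 6, the peak ranked 189 of 5203, 187.5 of 3647 and 254.5 of 4424 (tied folds share a mean rank). The peaks were 397, 490 and 506 bp long, and their midpoints fell within 53 bp of each other. No EtOH list had a peak here. The nearest solvent peak began 2.1 kb away in EtOH replicate 2 (fold 3.87) and 12.2 kb away in EtOH replicate 3 (fold 3.01). EtOH replicate 1 listed nothing between 154046627 and 154629378.

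Among the 492 sites in every 1,25D list and no EtOH list, the strongest SHE site was number 8 by mean fold, and their median fold was 4.86. This place changed with the libraries required. Without EtOH replicate 2 it was number 19, without EtOH replicate 3 number 22, and without 1,25D replicate 2 number 13. The most alike sites by within-list percentile of fold over the 3 1,25D lists began at 31264953 on chromosome 16, at 104680486 on chromosome 12 and at 92852954 on chromosome 14. Their root mean square differences from the SHE site were 0.168, 0.749 and 0.910 percentile points, the smallest of 489 candidates. The folds of the first, which ended at 31265404, were 10.2, 10.9 and 9.91 in replicates 1, 2 and 3.

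Around the strongest site lay 4 weaker ones, so that 5 sites fell within 5261 bp of SHE, from 154452563 to 154457824. The first, at 154452563 to 154452975, ended 397 bp before the strongest site and had folds of 3.71 in 1,25D replicate 2 and 5.10 in replicate 3. On the other side, 2117 bp beyond, was the single site shared between treatments, at 154456040 to 154456297. Its folds were 3.30 and 4.05 in 1,25D replicates 1 and 2 and 3.87 in EtOH replicate 2, so the solvent value lay between the hormone values. Another 47 bp on, the site at 154456344 to 154456538 had folds of 3.87 and 3.51 in 1,25D replicates 1 and 2. The fifth, at 154457677 to 154457824, was in 1,25D replicate 1 only (fold 3.71). Within this stretch 1,25D replicate 2 had weaker peaks on both sides of the strongest site, replicate 3 only before it and replicate 1 only after it. Nearer the start of SHE there were single-list peaks at 154459679 to 154459835 (1,25D replicate 2, fold 3.12) and at 154466089 to 154466233 (EtOH replicate 3, fold 3.01). The peak at 154459679 began 1855 bp past the stretch of 5 sites, less than the gap of 2117 bp inside it. Spacing alone therefore does not set the end of that stretch.

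**Figure D3:**
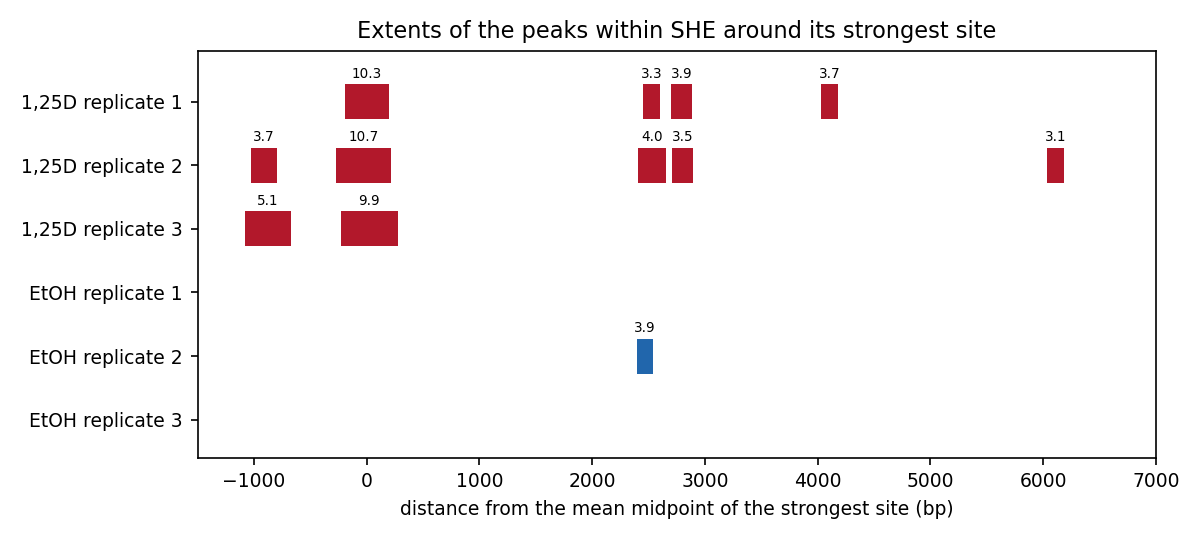
Bars are peaks drawn to scale in each list (y axis) by distance in bp from the mean midpoint of the strongest SHE site (x axis), with the authors' fold enrichment above each bar. The bars of the strongest site overlap in the 3 1,25D lists, whereas each flanking site is missing from at least 1 of them.

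The second-strongest site by mean fold lay at the start of SHE, at 154474225 to 154474649. Its folds were 4.88, 7.65 and 9.53 in 1,25D replicates 1, 2 and 3 (7.35 ± 2.34, SD, n = 3), with p-values of 2.86e-07, 1.44e-12 and 1.54e-17. The highest fold was about as high as at the strongest site, and the lowest was under 5, so at a minimum fold of 5 this site was no longer in every 1,25D list. The midpoints of its peaks were 225.5, 144 and 200.5 bp inside SHE, counted from the gene's start, and fell within 81.5 bp of each other. The peaks of replicates 1 and 3 ended at 154474502 and 154474511, short of the start at 154474589, and that of replicate 2 crossed it, ending at 154474649. No EtOH list had a peak here, and the nearest solvent peaks were 8.0 kb away in EtOH replicate 3 and 10.6 kb away in EtOH replicate 2. Because TDRD10 starts inside SHE in RefSeq's annotation, a peak at this place cannot be given to SHE alone. In GRCh38.p14 the bases searched before TDRD10 end at 154502218 and those before SHE begin at 154502413, so the starts are close together. Coordinates were not converted, so which start lies nearer to these peaks was not determined.

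The third site in every 1,25D list lay 50.4 kb before the IL6R start, at 154327100 to 154327342. Its folds were 5.65, 6.24 and 6.55 in 1,25D replicates 1, 2 and 3 (6.15 ± 0.458, SD, n = 3), with p-values of 1.48e-09, 9.89e-11 and 3.90e-11. These folds were lower than at the strongest SHE site in every 1,25D list, and above the fold at the SHE start in replicate 1 only. The peaks were 181, 215 and 196 bp long, against list medians of 162, 216 and 186 bp, and their midpoints fell within 49.5 bp. In 1,25D replicate 2 a separate peak with a fold of 3.77 ended 87 bp before this site. The nearest EtOH peak was 19.6 kb away, in replicate 2. Between this site and IL6R were 3 single-list peaks, with folds of 3.29 and 3.59 in 1,25D replicate 3 and 3.15 in EtOH replicate 2.

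IL6R itself had weaker peaks, in 1,25D replicates 2 and 3 only. The site at 154383873 to 154384226, 6.4 kb into the gene, had folds of 4.02 and 5.43 in replicates 2 and 3. The site at 154412009 to 154412322, 34.5 kb into the gene, had folds of 2.74 and 4.17. Its peaks were 141 and 199 bp long with midpoints 143 bp apart, and they counted as separate sites when an overlap of 50% of the shorter peak was required. At the IL6R start, 1,25D replicate 2 alone had a peak, at 154377639 to 154377784, with a fold of 4.04 and a p-value of 2.40e-05. Its midpoint was 42.5 bp past the start. Replicate 1 of 1,25D and all EtOH lists had no peak anywhere in IL6R, and the folds in the gene reached 5 at 1 peak only.

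The solvent peaks were of the shortest kind. In EtOH replicate 2 each of the 4 peaks was 148 bp long, and in EtOH replicate 3 the only peak was 144 bp. These are the lengths of the shortest peaks in those lists over the part covered by all 6, where 59% and 37.2% of peaks lay within 2 bp of the shortest. All 5 EtOH peaks of the window were within 2 bp of their list's shortest peak, against 4 of the 25 1,25D peaks. In the whole 1,25D lists over that part, 42.5%, 18.7% and 25.3% of peaks were so short in replicates 1, 2 and 3. The highest EtOH fold, 5.13 in replicate 2, was at 154506223 to 154506371, 31.7 kb beyond the start of SHE, and the other peak on that side, at 154485212 to 154485360, had 3.01. No 1,25D list had a peak on that side inside the window. The next peaks outside it began 24.0, 38.9 and 39.0 kb past its end in 1,25D replicates 1, 2 and 3, with folds of 3.69, 3.79 and 2.79. Before the window, the last 1,25D peaks ended 139.8 to 197.1 kb away, with folds of 2.73 to 4.30.

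The window was set beside 3379 windows of the same length that held at least 1 peak of any list in the part covered by all 6. Their median was 1 peak in each list except EtOH replicate 2, where it was 3. As many peaks as here, or more, were in 4.08%, 0.207% and 0.651% of windows for 1,25D replicates 1, 2 and 3. In EtOH replicate 2 the share was 34.4% and in EtOH replicate 3 it was 64.8%, so their 4 and 1 peaks were common numbers in those lists. EtOH replicate 1 had 0 peaks here and in 1247 windows in all. At least 3 sites called in every 1,25D list and no EtOH list were in 17 windows, or 0.503%, and 88% of windows had 0. Since the IL6R and SHE window was chosen on these calls, nothing is read from these shares.

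**Figure D4:**
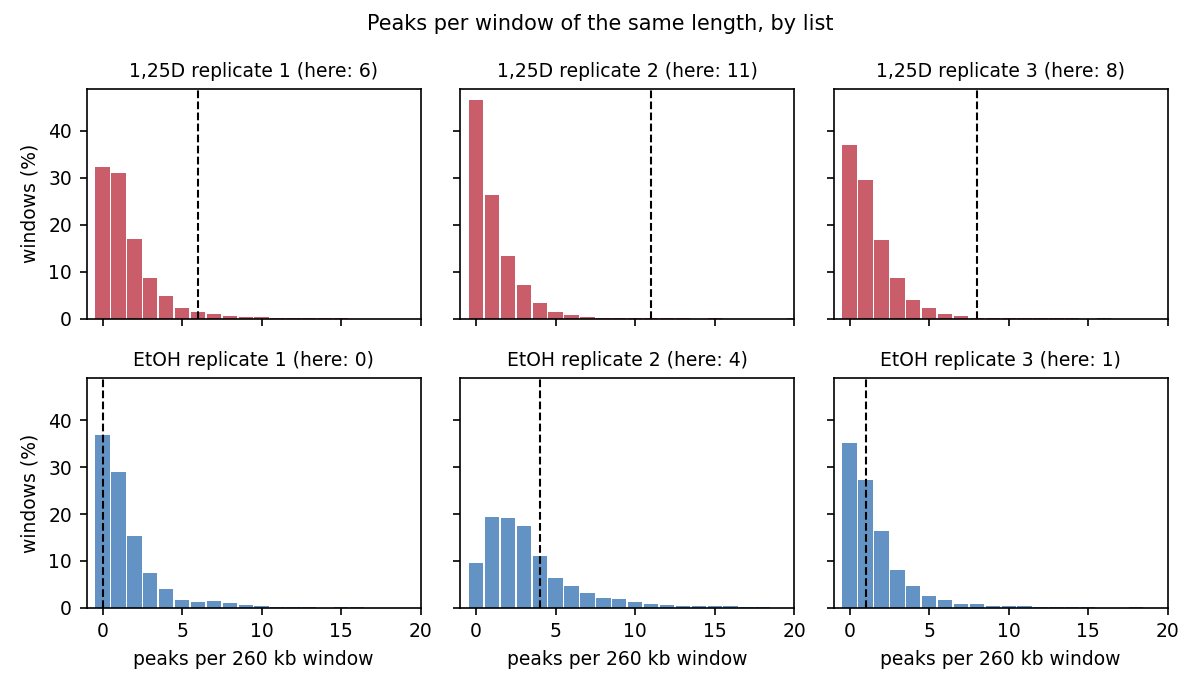
Bars give the share of the 3379 windows (y axis, percent) with each number of peaks (x axis, drawn up to 20), 1 panel per list, and the dashed line is the number of peaks in the IL6R and SHE window. The line stands in the right tail for the 1,25D lists (6, 11 and 8 peaks) and within the bulk for the EtOH lists (0, 4 and 1). Since the window was chosen on these calls, nothing is read from the place of the line.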

How the data were processed

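VDR ChIPmentation peak lists of THP-1 cells, 3 per treatment, were used as deposited, 1 list per library. The submitters' processing notes name Bowtie 1.1, MACS2 and the build hg19 (GRCh37), and do not state settings, control or treatment of duplicates. Per the file headers, each peak carries a fold enrichment, a ratio over background, and a p-value, both deposited by the authors. Whether starts count from 0 or 1 is not stated, so coordinates are as listed. A total of 3 lists ended in mid-line; the incomplete line was left out, and all lists cover the window. The files held 0 columns of other samples.

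Peaks sharing at least 1 bp were merged, and a list's highest fold at a site was taken (Python 3.11.15, pandas 2.3.3). The merging was tested on simulated lists. Peaks were assigned to a gene by midpoint. Named were sites in 2 or more lists, single-list peaks with a fold of 5 or more, the highest peak of each list and the 3 most alike sites; other single-list peaks, named so that every member is given, and the PU.1 core were chosen after values were seen. The window, members and lists were chosen with earlier results of these data known. Promoters are RefSeq's (GRCh38.p14; both genes matched); coordinates were not converted, and the planned list of interleukin-6 pathway genes was not analysed here.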

Additional observations from a re-analysis of the deposited data

How the results depend on the processing

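With 1 highest p for all lists (0.00431), 0 peaks of the window were lost. At a minimum fold of 5, the mean was 3.33 peaks per 1,25D list, and there were 6 sites of any kind, 3 in at least 2 1,25D lists and no EtOH list and 2 in every 1,25D list and no EtOH list. There the strongest SHE site was number 58 among sites in every 1,25D list and no EtOH list, since that limit lets in sites with a weaker EtOH peak. Over the part covered by all 6 lists, 14.5% to 22.5% of 1,25D peaks reached that fold, against 2.57% to 5.39% of EtOH peaks. The limit thus removes a larger share of EtOH peaks everywhere. Shares over all sites were not computed at this limit or with a list left out, so nothing is read from such counts. Leaving out each list in turn gave 7 to 9.5 peaks per 1,25D list, 0.5 to 2.5 per EtOH list, 3 to 6 sites in every 1,25D list and no EtOH list, 3 to 8 in at least 2, and 15 to 18 of any kind. It gave a mean fold of 10.1 to 10.5 at the strongest SHE site and a place of 8 to 22 for it. Of 72 values under other settings, 62 stayed within 1 SD of the value reported or, for counts, within 1.5 times of it. This tally does not measure stability, because some of the values could not change. The 1,25D mean, for example, stays the same when an EtOH list is left out. For the EtOH mean of 1.67 the SD was 2.08, so any lower mean counted as unchanged. No paired analysis was possible because the results come from no test; as a description, the 1,25D list exceeded the EtOH list of the same number by 6, 7 and 7 peaks in the window. With no read counts, depth sets an unknown limit on what a missing peak means.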
